A study of Mus musculus with 12 samples.

Results

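Mt1 and Mt2, which encode the widely expressed metallothioneins of the mouse, Mtf1, which encodes the metal-sensing transcription factor of these genes, and Slc30a1, which encodes the zinc exporter of the plasma membrane, were followed through 12 RNA-seq libraries made from sorted CD4 T cells of the mouse kidney. These 4 genes, of 52632 in the table, were taken by their symbols, and the set was chosen from earlier results of the same libraries, so their adjusted p-values describe where they stand among all genes and are not independent support. All 4 had a mean of at least 1 FPKM (fragments scaled by transcript length and library total) over the 12 libraries and were tested.

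The libraries fell into 4 groups of 3: Keap1 KO IRI, Keap1 KO control, WT IRI and WT control, where IRI stands for ischemia-reperfusion injury. KO mice carried the allele labelled CD4 Keap1 KO on the C57BL6/J background and were bred in house, whereas WT mice were C57BL6/J bought from Jackson, so genotype and source of the animals cannot be told apart. Keap1 is the protein that holds the antioxidant transcription factor NRF2 at a low level. The labels do not say which promoter drove the deletion or which part of Keap1 was deleted, and they do not give the age of the mice. For IRI both kidneys were clamped for 30 min and cells were taken at 24 h, and the controls were a separate group for which sham surgery is not stated. Mononuclear cells were enriched on Percoll, CD4 T cells were sorted by flow cytometry, and 1 ng of total RNA entered each library. The labels do not tie the 3 libraries of a group to separate mice, so every p-value is set against a spread that may be technical. FPKM carries no counts, and sequencing depth is therefore unknown.

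Metallothioneins are small, cysteine-rich proteins of the cytosol that bind zinc, copper and cadmium and can also scavenge reactive oxygen species. When free zinc rises, MTF1 binds zinc, enters the nucleus and switches on Mt1, Mt2 and Slc30a1 through short metal response elements in their promoters, while Slc30a1 protein moves zinc out of the cell. Glucocorticoids, inflammatory cytokines and oxidants are also known inducers of metallothioneins, and injured kidney tubules are one site where they are known to be induced.

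Keap1 itself was listed at 6.28, 5.95 and 4.59 FPKM in KO IRI libraries and 6.61, 5.75 and 7.77 FPKM in KO controls, against 8.80, 6.31 and 6.03 FPKM in WT IRI libraries and 8.50, 9.00 and 9.87 FPKM in WT controls. These values cover the whole gene, so they say little about a deletion of unknown extent. Nqo1, a quinone reductase and standard target of NRF2, was at 3.38 to 7.75 FPKM in the 6 KO libraries, against 0 to 0.543 FPKM in the 6 WT libraries, so the genotype labels were separated by it. The summed FPKM per library ran between 739969 (WT IRI 3) and 2089551 (KO IRI 2). The median tested gene was 0.29 higher (log2) in KO than in WT averaged over condition, so the values were also rescaled by median ratios, after which that median was 0.04. WT control 3, WT IRI 3 and KO control 1 were known from earlier results to stand apart, and results were also computed without them. The 10 CD4 T cell markers summed to 1343 to 1762 FPKM in KO IRI libraries and 1866 to 2795 FPKM in KO controls, against 705 to 810 FPKM in WT IRI libraries and 1481 to 1642 FPKM in WT controls, and none was at 0 in all 3 libraries of a group.

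Mt1 (ENSMUSG00000031765.8) and Mt2 (ENSMUSG00000031762.7) lie on the same strand of mouse chromosome 8 in build GRCm38, Mt2 at chr8:94172664-94173568 and Mt1 at chr8:94179082-94180327, with 5513 bases and no annotated gene between them. Each has 3 exons, in transcripts of 511 nt (Mt2) and 549 nt (Mt1). The bases before and just after their starts are shown because the 2 genes moved together in these cells and because these promoters hold the textbook metal response elements. The sequences are from RefSeq (GRCm38.p6, plus strand), 250 bases before and 30 bases after the RefSeq start, and capitals mark every match on either strand to the metal response element core TGCACNC or TGCGCNC. The RefSeq starts, at base 94179089 for Mt1 and 94172618 for Mt2, differ from the gene starts given above, which are those of GENCODE, and the Mt2 stretch after the RefSeq start lies wholly before the GENCODE start.

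Mt1 before the start, chr8:94178839-94179088: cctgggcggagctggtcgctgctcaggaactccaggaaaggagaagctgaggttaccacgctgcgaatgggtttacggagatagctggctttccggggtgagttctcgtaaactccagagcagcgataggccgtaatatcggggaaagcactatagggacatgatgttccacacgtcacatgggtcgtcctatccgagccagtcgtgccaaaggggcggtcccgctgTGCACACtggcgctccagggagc
Mt1 after the start, chr8:94179089-94179118: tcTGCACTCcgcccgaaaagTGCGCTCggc
Mt2 before the start, chr8:94172368-94172617: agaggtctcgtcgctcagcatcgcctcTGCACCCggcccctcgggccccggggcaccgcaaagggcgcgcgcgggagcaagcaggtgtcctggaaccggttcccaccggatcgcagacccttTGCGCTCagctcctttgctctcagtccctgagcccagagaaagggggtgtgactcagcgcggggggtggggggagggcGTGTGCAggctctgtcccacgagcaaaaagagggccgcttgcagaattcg
Mt2 after the start, chr8:94172618-94172647: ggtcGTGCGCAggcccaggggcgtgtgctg

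The core was matched 3 times in the Mt1 window and 4 times in the Mt2 window. Slc30a1 had 2 matches in the same window of 250 bases before and 50 bases after the start, and Mtf1 had 0. At least 1 match stood in 25.7% of 32851 promoter windows of this length and at least 3 matches stood in 1.97% of them. The core of the antioxidant response element, TGACNNNGC, which NRF2 binds, was matched once in the Mt2 and once in the Slc30a1 window and not in those of Mt1 or Mtf1, against 12.4% of all windows with at least 1 match. A match describes these letters and does not show a bound site. Bases beyond these windows, which rest on the RefSeq starts, were not searched, so a window without a match does not mean a promoter without one.

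Mt1 was far higher after IRI in both genotypes. It stood at 54.3, 121.9 and 175.7 FPKM in the KO IRI libraries, against 20.7, 6.96 and 7.07 FPKM in the KO controls. In WT it stood at 166.0, 89.2 and 23.9 FPKM after IRI, against 7.99, 3.83 and 9.11 FPKM in controls. Every IRI library was above every control library, and the lowest IRI value (WT IRI 3) lay just above the highest control value (KO control 1). Mt1 averaged 117.3 ± 60.8 FPKM after IRI and 11.6 ± 7.88 FPKM in controls in KO, and 93.1 ± 71.1 FPKM after IRI and 6.98 ± 2.78 FPKM in controls in WT (SD, n = 3 each), ratios of 10.1 and 13.3. In bulk RNA, a change in the share of cells that hold the transcript and a change in RNA per cell cannot be told apart.

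Mt2 had the same order at lower levels. It stood at 9.14, 47.5 and 61.8 FPKM in KO IRI libraries, against 3.22 FPKM in KO control 2 and a listing at 0 in KO controls 1 and 3. In WT it stood at 82.3, 29.8 and 3.24 FPKM after IRI, against 0.131, 1.14 and 2.29 FPKM in controls. IRI and control libraries did not overlap within either genotype, although WT IRI 3 was only slightly above the highest WT control. A value of exactly 0 can be a failed estimate in this table, since Malat1, an abundant nuclear RNA, is also listed at 0 in KO control 1, so no ratio of means is given for Mt2 in KO. The fitted differences of Mt2 below that involve KO controls rest on these 0s and on the pseudocount, and are given as values of that scale and not as sizes of change. In WT, Mt2 averaged 38.4 ± 40.2 FPKM after IRI and 1.19 ± 1.08 FPKM in controls (SD, n = 3 each).

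**Figure D1:**
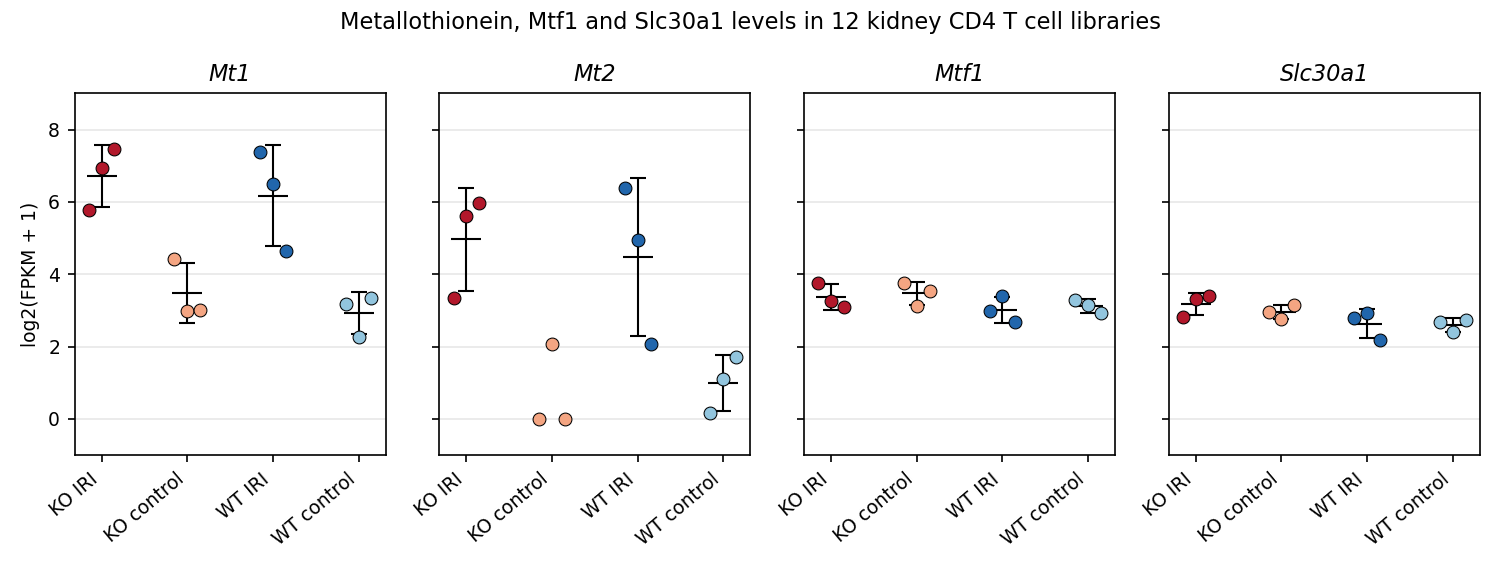
Levels of Mt1, Mt2, Mtf1 and Slc30a1 as log2(FPKM + 1) in each library (points) with the mean and SD of each group (n = 3; none for Mt2 in KO control, where 2 libraries are listed at 0), for KO IRI, KO control, WT IRI and WT control. The IRI libraries of Mt1 and Mt2 sit above their controls in both genotypes, whereas Mtf1 and Slc30a1 stay within a narrow band in all 4 groups.

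In the fit over all 19288 tested genes (limma on log2(FPKM + 1), Benjamini-Hochberg adjustment, differences with their standard error, SE), the IRI difference averaged over genotype was 3.25 ± 0.49 for Mt1 (adjusted p = 0.00294) and 3.88 ± 0.75 for Mt2 (adjusted p = 0.0102). Both were higher in 6 of 6 IRI libraries than in any control of their genotype. The share of all genes whose libraries stand apart in this way was not counted, here or for the other genes and sums described as apart. Over all tested genes, 3.01% were called higher in this comparison, and Mt1 ranked 22 from the top by the size of the difference. The 95% intervals were 2.17 to 4.33 for Mt1 and 2.22 to 5.53 for Mt2. Both passed the threshold of 0.05 in all 20 alternatives, with limma adjusted p-values of 0.00108 to 0.0135 for Mt1 and 0.00329 to 0.0374 for Mt2. None of these left out both KO controls with Mt2 listed at 0, so they cannot test the Mt2 call free of those values. The value for Mt2 depended on the pseudocount because its controls were near or listed at 0, and ranged over 2.45 to 5.53 across those alternatives, against 2.78 to 3.97 for Mt1. After rescaling the differences were 3.32 ± 0.45 for Mt1 (limma adjusted p = 0.00121) and 3.86 ± 0.74 for Mt2 (limma adjusted p = 0.00731), with 6.35% of all genes called higher.

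Within a single genotype, with 3 libraries against 3, the calls were less settled than the values. In KO the Mt1 difference was 3.25 ± 0.69 (limma adjusted p = 0.0592) and that of Mt2 was 4.28 ± 1.06 (limma adjusted p = 0.0944; 6.55 with a pseudocount of 0.1 and 2.64 with 5), so 0 of the 4 genes passed, where 0.327% of all genes were called higher and 0.539% lower. In WT, Mt1 rose by 3.25 ± 0.69 (limma adjusted p = 0.0295) and Mt2 differed by 3.47 ± 1.06 (limma adjusted p = 0.107), so 1 of the 4 genes passed, where 1.19% of all genes were called higher. The Mt1 call in WT was lost without any of WT control 1, 2 or 3, without WT IRI 1 or 2 and without KO IRI 2, with adjusted p-values between 0.0556 and 0.117. The difference of Mt1 in WT was 2.64 without WT IRI 1 and 4.01 without WT IRI 3, and that of Mt2 was 2.52 and 4.66, the last with a limma adjusted p of 0.0298. The Mt1 difference in KO passed without WT IRI 3 (limma adjusted p = 0.03) and without KO IRI 1 (limma adjusted p = 0.0499). For Mt2 in KO, leaving out KO control 2 left only controls listed at 0, so the pass it gave (limma adjusted p = 0.0491) carries no weight. After rescaling, Mt1 passed in KO (3.33 ± 0.64, limma adjusted p = 0.0296) and in WT (3.31 ± 0.64, limma adjusted p = 0.0124), while Mt2 did not (limma adjusted p = 0.074 and 0.0676). Rescaled, 0.959% of all genes were called higher and 1.1% lower in KO, and 3.26% higher and 4.68% lower in WT.

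Mt1 stood above Mt2 in all 12 libraries. FPKM is scaled for length, so the 2 levels can be set side by side. The ratio of Mt1 to Mt2 was 5.94, 2.57 and 2.84 in KO IRI libraries, against 2.16 in the one KO control with a value above 0. It was 2.02, 3.00 and 7.37 in WT IRI libraries, against 61.0, 3.35 and 3.99 in WT controls. The high ratio of WT control 1 rested on an Mt2 value of 0.131 FPKM. Among all listed genes of its library, ordered with the most abundant as 1, Mt1 took places 347 to 2147 after IRI and 4973 to 10961 in controls. No other gene held any of the 36-base stretches of the Mt1 transcript, and Mt1 and Mt2 shared none, so reads of that length can tell the pair apart. Of the 36-base stretches of Mt2, 52.9% also lay in Gm45774, an antisense gene over Mt2 that was at 0 to 0.436 FPKM. The strand setting of the counting is not given in the sources used here, so reads of the 2 strands at Mt2 cannot be told apart.

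Mtf1 (ENSMUSG00000028890.13, chr4:124802104-124849800, plus strand, 11 exons), the transcription factor upstream of both metallothioneins, gave no difference past the threshold after IRI. It stood at 12.7, 8.57 and 7.48 FPKM in KO IRI libraries, against 12.5, 7.78 and 10.5 FPKM in KO controls. It stood at 6.87, 9.52 and 5.42 FPKM in WT IRI libraries, against 8.80, 7.81 and 6.56 FPKM in WT controls. The IRI and control libraries overlapped in both genotypes. The difference averaged over genotype was -0.10 ± 0.18 (95% interval -0.49 to 0.29, limma adjusted p = 0.773), and it was 0.0050 without the 3 libraries that stand apart. Of the 36-base stretches of Mtf1, 9.03% lay in other genes, and it overlaps the protein-coding gene 1110065P20Rik on the opposite strand, which was at 1.96 to 6.94 FPKM.

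Slc30a1 (ENSMUSG00000037434.7, chr1:191906767-191913247, plus strand, 2 exons), the exporter that MTF1 controls, did not pass the threshold after IRI either. It stood at 6.05, 8.95 and 9.50 FPKM in KO IRI libraries, against 6.76, 5.75 and 7.85 FPKM in KO controls. It stood at 5.96, 6.60 and 3.54 FPKM in WT IRI libraries, against 5.44, 4.25 and 5.61 FPKM in WT controls. The groups overlapped in both genotypes. As deposited, WT IRI 3 was the lowest of the 12 libraries for Slc30a1, and it also had the lowest summed FPKM and the lowest median ratio (0.755). The difference averaged over genotype was 0.13 ± 0.17 (95% interval -0.24 to 0.50, limma adjusted p = 0.678), so the upper bound was far below the lower bound for Mt1 and Mt2. Its sign turned when libraries were set to a common sum. Of its 36-base stretches, 8.33% lay in other genes, and the antisense gene 1700034H15Rik over it was at 0.508 to 2.58 FPKM.

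**Figure D2:**
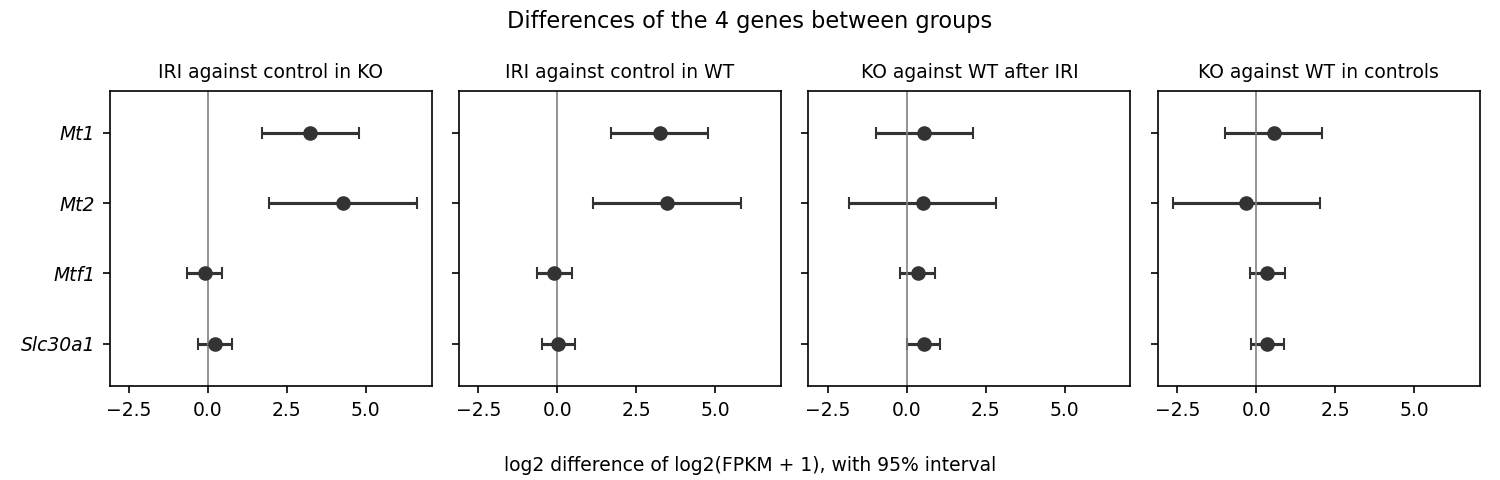
Differences in log2(FPKM + 1) with 95% intervals for the 4 genes in 4 comparisons: IRI against control in KO, IRI against control in WT, KO against WT after IRI and KO against WT in controls. The intervals of Mt1 and Mt2 lie above 0 in both IRI comparisons, and those of Mtf1 and Slc30a1 in the same comparisons span 0. The KO control libraries of Mt2 include 2 listed at 0, so its points that use them depend on the pseudocount.

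Whether Keap1 deletion changed these genes was asked in controls and after IRI. No member passed the threshold in controls, where 0.0259% of all genes were called, or after IRI, where 0.057% were called. In controls the KO difference from WT was 0.55 ± 0.69 for Mt1, -0.31 ± 1.06 for Mt2, 0.36 ± 0.25 for Mtf1 and 0.35 ± 0.24 for Slc30a1 (limma adjusted p = 0.622, 0.883, 0.39 and 0.372). After IRI it was 0.56 ± 0.69 for Mt1, 0.50 ± 1.06 for Mt2, 0.35 ± 0.25 for Mtf1 and 0.54 ± 0.24 for Slc30a1 (limma adjusted p = 0.648, 0.809, 0.41 and 0.215). The 95% intervals for Mt1 were wide in both, -0.97 to 2.08 in controls and -0.97 to 2.09 after IRI. With 3 libraries a group, differences within these bounds were not excluded. After IRI the sign of Mt1, Mt2, Mtf1 and Slc30a1 turned when libraries were set to a common sum.

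Averaged over condition, Slc30a1 was 0.44 ± 0.17 higher in KO than in WT (95% interval 0.07 to 0.82, limma adjusted p = 0.0881), Mtf1 0.36 ± 0.18 (adjusted p = 0.17), Mt1 0.56 ± 0.49 (adjusted p = 0.425) and Mt2 0.10 ± 0.75 (adjusted p = 0.937), and 0 of 4 passed, where 13.7% of all genes were called. The median of all tested genes was itself 0.29 higher in KO. After rescaling, Slc30a1 differed by 0.17 ± 0.15 (limma adjusted p = 0.543) and Mtf1 by 0.07 ± 0.14 (limma adjusted p = 0.801), with 0.55% of all genes called. Rescaled, 0 of the 4 genes passed in controls or after IRI, where 0.0363% and 0.057% of all genes were called. As deposited, the 3 KO controls of Slc30a1 (5.75 to 7.85 FPKM) lay above the 3 WT controls (4.25 to 5.61 FPKM), and all other genotype pairs of the members overlapped. On that scale the median tested gene was 0.30 higher in KO controls than in WT controls. After rescaling the Slc30a1 difference in controls was 0.06 ± 0.21 (limma adjusted p = 0.946).

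The response to IRI was not shown to differ between genotypes. The interaction, the IRI difference in KO minus that in WT, was 0.00 ± 0.98 for Mt1 (95% interval -2.16 to 2.17), 0.81 ± 1.50 for Mt2 (-2.50 to 4.12), -0.00 ± 0.36 for Mtf1 (-0.79 to 0.79) and 0.19 ± 0.34 for Slc30a1 (-0.56 to 0.93), each with a limma adjusted p of 0.999. Over all genes, 0.00518% were called, and 646 genes had an unadjusted p under 0.05. The interval for Mt1 leaves room for an IRI response several times larger or smaller in KO than in WT. The genotype comparisons and the IRI comparisons share libraries.

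Beyond Mt1 and Mt2, the other mouse metallothioneins were at 0 to 3.24 FPKM, a range that also held all control libraries of Mt2. Mt3, known mainly from brain, was at 3.24, 0.733 and 0.64 FPKM in KO IRI libraries and 1.57, 1.13 and 2.28 FPKM in KO controls, and between 0 and 0.82 FPKM in the 6 WT libraries. Mt4, known from stratified epithelium, was listed at 0 in 10 libraries and at 0.582 FPKM in KO control 2 and 0.178 FPKM in WT control 2. Neither reached the mean level needed to be tested.

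The remaining zinc exporters of the SLC30 family, which move zinc out of the cytosol into vesicles or out of the cell, showed 1 change after IRI. Of 9 listed genes 5 were tested, and their median IRI difference averaged over genotype was 0.02, against -0.003 over all genes. Slc30a4, a vesicular zinc transporter, rose by 1.34 ± 0.26 (limma adjusted p = 0.00975), where 3.01% of all genes were called higher. As lower 0 exporters passed, where 6.03% of all genes did. Slc30a4 stood at 5.01, 5.81 and 11.4 FPKM in KO IRI libraries, against 1.07, 2.03 and 2.85 FPKM in KO controls. It stood at 4.41, 6.17 and 3.33 FPKM in WT IRI libraries, against 2.30, 1.41 and 0.663 FPKM in WT controls. All 6 IRI libraries of Slc30a4 were above all 6 controls, as for Mt1. The call held in 19 of 20 alternatives and was missed without the 3 libraries that stand apart (limma adjusted p = 0.051). Slc30a9, a mitochondrial zinc transporter, and Slc30a5, which loads zinc into the early secretory pathway, had the highest means of the list and did not pass after IRI. Slc30a9 was at 20.5 to 21.4 FPKM in KO IRI libraries and 14.1 to 23.1 FPKM in KO controls, and at 11.1 to 19.5 FPKM in WT IRI libraries and 13.6 to 18.5 FPKM in WT controls. Slc30a5 was at 13.3 to 20.6 FPKM in KO IRI libraries and 14.8 to 19.9 FPKM in KO controls, and at 8.67 to 14.1 FPKM in WT IRI libraries and 9.82 to 13.5 FPKM in WT controls, so the levels overlapped. Within KO and within WT, 0 of the 5 passed. Of all genes, 0.327% were called higher and 0.539% lower in KO, and 1.19% higher and 2.59% lower in WT. After rescaling Slc30a7, a Golgi zinc transporter, passed as higher in WT (0.91 ± 0.20, limma adjusted p = 0.0202), where 3.26% of all genes were called higher, and its rescaled difference in KO was -0.12 ± 0.20 (limma adjusted p = 0.806). The rescaled interaction of Slc30a7 was -1.03 ± 0.28 (limma adjusted p = 0.906), so its response was not shown to differ between genotypes.

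The zinc importers of the SLC39 family, which bring zinc into the cytosol, had 2 members lower after IRI and none higher. Of 14 listed genes 12 were tested, with a median IRI difference of -0.02 averaged over genotype, where 3.01% of all genes were called higher and 6.03% lower. Slc39a6, an importer at the plasma membrane, fell by 0.57 (limma log2 difference -0.57 ± 0.12, adjusted p = 0.0141), and Slc39a11 fell by 0.87 (-0.87 ± 0.19, limma adjusted p = 0.0188). Slc39a6 was at 7.56 to 8.61 FPKM in KO IRI libraries and 7.94 to 12.2 FPKM in KO controls. For WT the values were 5.78, 5.60 and 4.88 FPKM after IRI and 10.3, 11.1 and 10.2 FPKM in controls. The Slc39a6 groups were apart in WT and overlapped in KO. Slc39a11 was at 6.16, 6.39 and 4.07 FPKM in KO IRI libraries and 6.23, 8.31 and 9.73 FPKM in KO controls. For WT the values were 2.94, 2.42 and 1.16 FPKM after IRI and 5.52, 5.71 and 8.32 FPKM in controls. Both passed in WT alone (-0.85 ± 0.17 and -1.27 ± 0.27, limma adjusted p = 0.021 and 0.0301), where 2.59% of all genes were called lower. In KO 0 of 12 passed, where 0.327% of all genes were called higher and 0.539% lower. Whether the genotypes differed was tested only in the interaction, where none of the 12 passed. The WT call of Slc39a6 was missed without any of WT control 1, 2 and 3 and WT IRI 1 and 2, and that of Slc39a11 without any of WT control 1, 2 and 3, WT IRI 2 and 3 and KO IRI 2. Averaged over genotype, Slc39a6 missed the threshold in 1 of 20 alternatives, without the 3 libraries that stand apart (limma adjusted p = 0.0612). Slc39a11 missed it in 2 of 20, without KO control 3 and without KO IRI 3, with a limma adjusted p of at most 0.0542. After rescaling, Slc39a1 (0.54 ± 0.12, limma adjusted p = 0.0184) and Slc39a8 (0.57 ± 0.16, limma adjusted p = 0.0429) passed as higher beside the same 2 lower. Rescaled, 6.35% of all genes were called higher and 7.33% lower. Slc39a7 and Slc39a9, importers of the endoplasmic reticulum and Golgi with the highest means of the list, did not pass. Slc39a7 was at 22.9 to 27.0 FPKM in KO IRI libraries and 17.8 to 37.7 FPKM in KO controls, and at 13.9 to 19.1 FPKM in WT IRI libraries and 20.4 to 23.1 FPKM in WT controls. Slc39a9 was at 11.5 to 19.1 FPKM in KO IRI libraries and 11.9 to 15.9 FPKM in KO controls, and at 11.1 to 11.9 FPKM in WT IRI libraries and 10.3 to 15.9 FPKM in WT controls.

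Between genotypes, averaged over condition, 1 of 5 exporters and 3 of 12 importers passed as higher in KO and 0 as lower, where 13.7% of all genes were called in either direction. These were Slc30a5 (0.58 ± 0.16), Slc39a4 (1.01 ± 0.20), the importer whose loss in humans causes zinc deficiency, Slc39a11 (0.67 ± 0.19) and Slc39a3 (0.65 ± 0.19), with limma adjusted p-values of 0.0442, 0.026, 0.0456 and 0.0483. The list medians were 0.32 for exporters and 0.42 for importers, against 0.29 over all genes. These calls were missed in 16 of 20 alternatives for Slc30a5, 12 for Slc39a4, 17 for Slc39a11 and 17 for Slc39a3. After rescaling 0 of the 17 passed, where 0.55% of all genes were called. Within controls or after IRI alone 0 passed in the values as deposited, where 0.0259% and 0.057% of all genes were called.

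**Figure D3:**
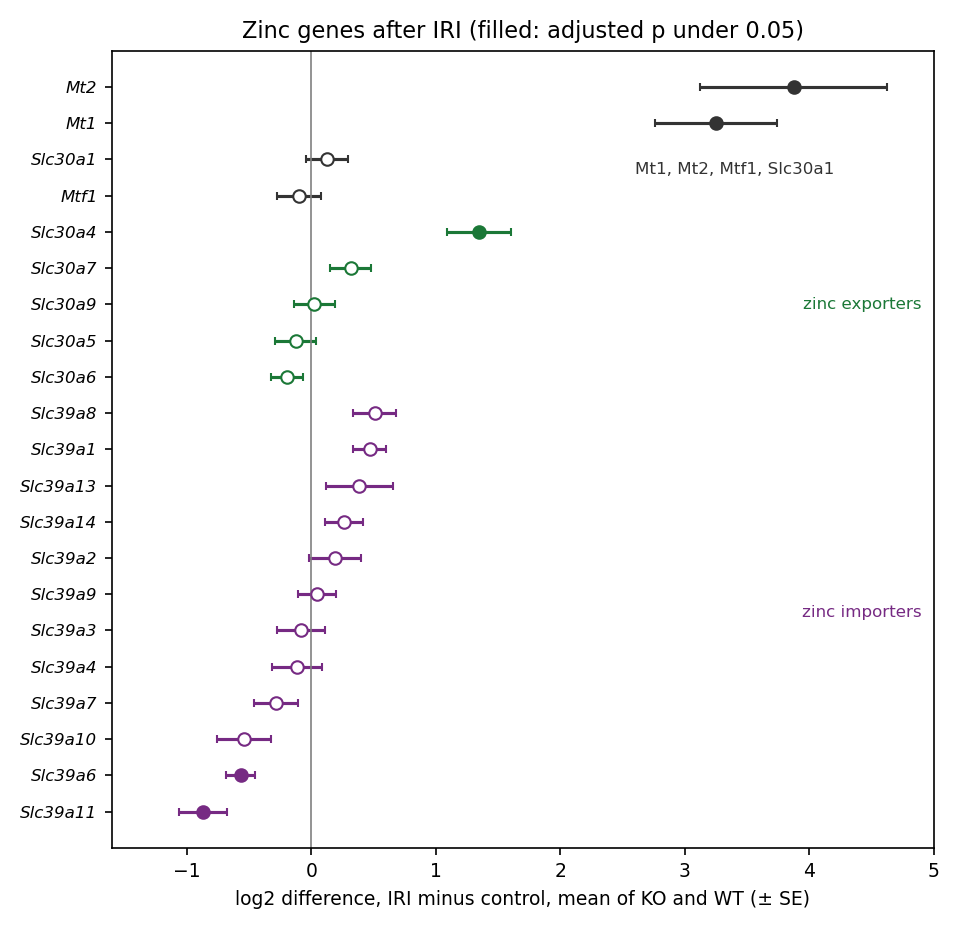
IRI difference in log2(FPKM + 1), averaged over genotype, with its SE for Mt1, Mt2, Mtf1 and Slc30a1, the 5 tested further zinc exporters and the 12 tested zinc importers. Filled points passed the adjusted threshold of 0.05: Mt1, Mt2 and Slc30a4 as higher, Slc39a6 and Slc39a11 as lower.

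Genes linked to MTF1 beside the metallothioneins and Slc30a1 held no call as higher after IRI. Of 6 listed genes 5 were tested, 0 passed as higher and 1 as lower in the IRI comparison averaged over genotype, where 3.01% of all genes were called higher and 6.03% lower. Selenow, a small selenoprotein, fell by 1.19 (-1.19 ± 0.18, limma adjusted p = 0.00263). It was at 45.0, 37.5 and 39.4 FPKM in KO IRI libraries, against 102, 62.1 and 97.3 FPKM in KO controls. WT values were 24.9, 14.7 and 18.9 FPKM after IRI, against 41.7, 47.6 and 62.1 FPKM in controls. The groups did not overlap in either genotype, and the call held in all 20 alternatives. Slc39a10, an importer that MTF1 is known to repress, had a difference of -0.54 ± 0.22 (limma adjusted p = 0.158). After rescaling Gclc, the catalytic subunit of glutathione synthesis and also an NRF2 target, passed as higher (0.69 ± 0.17, limma adjusted p = 0.0218). Rescaled, 6.35% of all genes were called higher. Between genotypes, averaged over condition, Gclc (1.25 ± 0.21), Selenow (0.90 ± 0.18) and Ndrg1 (1.06 ± 0.24) were higher in KO (limma adjusted p = 0.0228, 0.0245 and 0.0321), where 13.7% of all genes were called. Of these Gclc alone passed after rescaling, where 0.55% were called. The Gclc call was missed without any of WT control 1 and 2, KO control 1 and 3 and KO IRI 1.

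Glucocorticoid-responsive genes were listed because glucocorticoids induce metallothioneins. All 12 were tested, and 5 passed as higher and 0 as lower after IRI averaged over genotype, with a median difference of 0.50, where 3.01% of all genes were called higher and 6.03% lower and the median of all genes was -0.003. Fkbp5, a chaperone of the glucocorticoid receptor, rose by 1.33 ± 0.22 (limma adjusted p = 0.0045). It was at 65.1, 44.0 and 41.8 FPKM in KO IRI libraries and 25.8, 19.3 and 15.6 FPKM in KO controls. In WT it was at 36.5, 41.1 and 17.6 FPKM after IRI and 10.3, 10.5 and 11.5 FPKM in controls. As with Mt1, all IRI libraries were above the controls of their genotype. WT IRI 3, the library with the lowest summed FPKM and median ratio, was the lowest IRI library. Per1, a clock gene, rose by 0.98 ± 0.22, Errfi1, an inhibitor of the EGF receptor, by 0.72 ± 0.18, and Il7r, the receptor for interleukin 7, by 0.78 ± 0.19 (limma adjusted p = 0.0197, 0.0292 and 0.0303). The Fkbp5 call held in all 20 alternatives. The Per1 call was missed without WT control 2, WT IRI 1, WT IRI 2 or KO control 3 (limma adjusted p of at most 0.0541). Errfi1 missed the threshold in 12 of 20 alternatives and Il7r in 10 of 20, among them the loss of WT control 1 or 2, WT IRI 1 or 2, KO control 1 or KO IRI 2 for either gene, of WT IRI 3, KO control 3 or KO IRI 3 for Errfi1, and of WT control 3 for Il7r. Within WT Fkbp5 passed (1.39 ± 0.31, limma adjusted p = 0.0354), a call missed without any of WT control 1, 2 and 3, WT IRI 1 and 2 and KO IRI 2, and within KO 0 of 12 passed. Of all genes, 1.19% were called higher in WT and 0.327% in KO.

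NRF2 targets, the genes that Keap1 loss is known to raise, were 15 of 18 tested members higher in KO averaged over condition and 0 lower, with a median difference of 1.14, against 0.29 over all genes, and 13.7% of all genes called. After rescaling 9 of 18 passed, against 0.55% of all genes. These targets were among the results known when the genes here were chosen. None of the 4 zinc genes passed in that comparison. Hmox1, heme oxygenase, rose by 1.98 ± 0.22 after IRI averaged over genotype (limma adjusted p = 0.000641). It was at 25.8, 22.2 and 14.4 FPKM in KO IRI libraries, against 4.44, 3.83 and 4.57 FPKM in KO controls. In WT it was at 17.9, 17.5 and 7.71 FPKM after IRI, against 3.10, 2.09 and 3.14 FPKM in controls. In both genotypes the Hmox1 groups were apart, and the call held in all 20 alternatives. WT IRI 3, the library with the lowest summed FPKM and median ratio, was again the lowest IRI library. Over the 18 targets, 3 passed as higher and 3 as lower after IRI, where 3.01% of all genes were called higher and 6.03% lower. Slc7a11, the cystine transporter, was 1.00 ± 0.18 higher (limma adjusted p = 0.00735), a call missed with a common sum and without the 3 libraries that stand apart. Txn1, thioredoxin, fell by 1.20 (-1.20 ± 0.24, limma adjusted p = 0.0128), a call that held in all 20 alternatives. Cat, catalase, fell by 0.80 (-0.80 ± 0.14, limma adjusted p = 0.00531), a call missed without the 3 libraries that stand apart (limma adjusted p = 0.0543).

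The protein-coding genes whose levels moved most like those of Mt1 across the 12 libraries were found by the root-mean-square difference of rescaled, centred log2 values over 11606 genes. For Mt1 they were Ramp3 (0.753), Rapgef3 (0.767), Socs3 (0.833), Cdkn1a (0.838) and Mt2 itself (0.929). Ramp3 encodes a partner protein of calcitonin-family receptors and was at 26.2 to 49.3 FPKM in KO IRI libraries and 3.42 to 6.48 FPKM in KO controls, and at 24.5 to 35.8 FPKM in WT IRI libraries and 2.29 to 2.64 FPKM in WT controls. Socs3, the feedback inhibitor of cytokine receptors that signal through STAT3, was at 230 to 286 FPKM in KO IRI libraries and 26.0 to 57.3 FPKM in KO controls, and at 105 to 153 FPKM in WT IRI libraries and 20.3 to 29.7 FPKM in WT controls. Rapgef3 encodes an exchange factor that cyclic AMP activates, and Cdkn1a encodes the cell cycle inhibitor p21. For Mt2 the nearest were Lcn2 (0.611), Mt1 (0.929), Rapgef3 (1.14), Ramp3 (1.19) and Clu (1.24), which encodes a secreted chaperone.

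Lcn2, which encodes a carrier of bacterial siderophores that injured tubules and neutrophils are known to make, was the gene nearest to Mt2 and also stood in the list of injured tubule markers. It was at 8.84, 32.8 and 39.9 FPKM in KO IRI libraries, against 0, 0.912 and 0 FPKM in KO controls. Its WT values were 84.1, 86.0 and 4.29 FPKM after IRI, against 0.351, 0.877 and 1.67 FPKM in controls. KO IRI 1 and WT IRI 3, the lowest IRI libraries of Lcn2, were also the lowest of Mt1 and Mt2 in their genotype. Lcn2 and Mt2 were both listed at 0 in KO control 1 and KO control 3. The likeness used those values, and what they add to it was not tested.

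The 8 injured tubule markers, all present in the table and none at 0 in all 3 libraries of a group, moved with Mt1 and Mt2 among the IRI libraries. Their summed level was 19.6, 340.1 and 402.0 FPKM in KO IRI libraries, against 0.97, 7.03 and 3.49 FPKM in KO controls. It was 341.7, 334.4 and 47.4 FPKM in WT IRI libraries, against 6.39, 3.78 and 14.1 FPKM in WT controls. Spp1 (osteopontin), which T cells can also make, was at 7.85, 272 and 307 FPKM in KO IRI libraries and 242, 239 and 35.6 FPKM in WT IRI libraries, most of the sum in each of these except KO IRI 1, where Lcn2 at 8.84 FPKM was above it. Havcr1, a marker of injured proximal tubule, was at 0.205, 0.731 and 9.61 FPKM in KO IRI libraries and 1.33, 0.454 and 0.211 FPKM in WT IRI libraries (Spp1 and Havcr1 were named after their values were seen). KO IRI 1 had a marker sum of 19.6 FPKM, against 0.97 to 7.03 FPKM in KO controls. Its Mt1 was 54.3 FPKM, against 6.96 to 20.7 FPKM in KO controls. The part of tubule RNA in the Mt1 and Mt2 results was not tested.

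**Figure D4:**
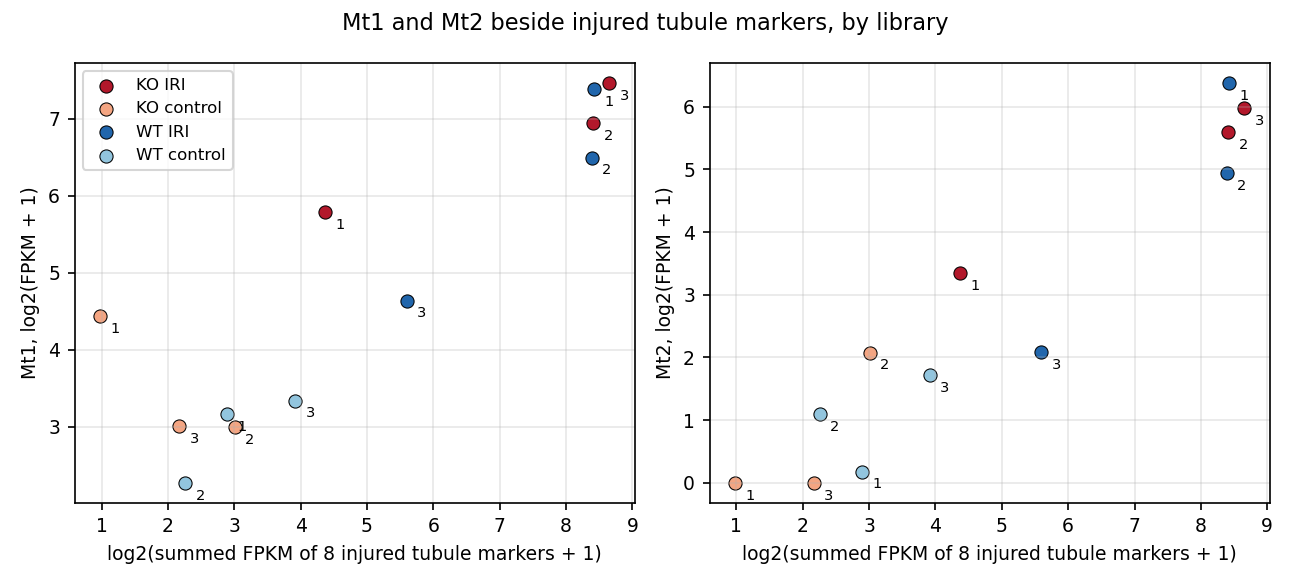
Mt1 and Mt2 as log2(FPKM + 1) (vertical axis) against the summed FPKM of 8 injured tubule markers as log2(sum + 1) (horizontal axis), with 1 point per library in 4 groups. The IRI libraries with the low marker sums, KO IRI 1 at 19.6 FPKM and WT IRI 3 at 47.4 FPKM, are also the lowest IRI libraries of each genotype for both genes.

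Markers of other cells the sort could hold are given first as summed levels, with no test of the sums. The 12 proximal tubule markers summed to 47.6, 52.7 and 363.9 FPKM in KO IRI libraries and 39.3, 207.0 and 63.7 FPKM in KO controls. In WT they summed to 94.1, 26.9 and 24.5 FPKM after IRI and 24.3, 26.3 and 97.0 FPKM in controls, so these sums overlapped between IRI and control in both genotypes. The 6 loop and distal tubule markers summed to 5.26, 47.8 and 279.6 FPKM in KO IRI libraries and 2.18, 38.5 and 16.6 FPKM in KO controls, and to 57.8, 38.7 and 9.46 FPKM in WT IRI libraries and 24.6, 9.82 and 81.9 FPKM in WT controls. These sums overlapped too, with single high libraries in KO IRI and WT control. The sums of the 10 neutrophil markers did not overlap between IRI and control in either genotype, at 5.17 to 37.5 FPKM in KO IRI libraries and 2.86 to 4.94 FPKM in KO controls, and at 20.4 to 45.4 FPKM in WT IRI libraries and 7.43 to 9.42 FPKM in WT controls. The 12 macrophage and monocyte markers summed to 117.7 to 271.3 FPKM in KO IRI libraries and 232.5 to 432.8 FPKM in KO controls, and to 123.1 to 167.3 FPKM in WT IRI libraries and 144.8 to 230.9 FPKM in WT controls. The 6 B cell markers summed to 5.56 to 8.88 FPKM in KO IRI libraries and 25.4 to 90.9 FPKM in KO controls, and to 6.47 to 18.5 FPKM in WT IRI libraries and 14.1 to 56.3 FPKM in WT controls. Endothelial markers (6 genes) summed to 36.9 to 42.7 FPKM in KO IRI libraries and 34.1 to 52.6 FPKM in KO controls, and to 25.6 to 34.4 FPKM in WT IRI libraries and 26.6 to 38.6 FPKM in WT controls. The 2 CD8 T cell markers summed to 4.41 to 5.76 FPKM in KO IRI libraries and 12.2 to 19.4 FPKM in KO controls, and to 2.89 to 5.13 FPKM in WT IRI libraries and 7.60 to 7.97 FPKM in WT controls, apart in both genotypes. By gene, after IRI averaged over genotype, limma called 2 of 6 tested injured tubule markers (Lcn2 and Spp1) and 4 of 7 neutrophil markers higher and none of these lower, and 7 of 10 CD4 T cell, 2 of 2 CD8 T cell and 4 of 6 B cell markers lower and none of these higher. Of all tested genes, 3.01% were called higher and 6.03% lower in this comparison. Among macrophage and monocyte markers 1 of 12 was called higher and 3 lower, and of 9 proximal tubule, 5 loop and distal tubule and 2 endothelial markers tested none was called. In KO against WT averaged over condition, limma called 10 of 10 CD4 T cell markers higher, where 13.7% of all genes were called in either direction. As deposited, 1 of 2 CD8 T cell and 1 of 2 endothelial markers were also higher, and no other marker was called. After rescaling 2 of the 10 CD4 T cell markers passed as higher, against 0.55% of all genes. None of these lists had a marker at 0 in all 3 libraries of a group, and their part in the Mt1 and Mt2 results was not tested.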

How the data were processed

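Per the file headers, the authors deposited 1 FPKM value per gene and library for 52632 genes. Build GRCm38 and the tools TopHat2 (2.1.0), bcl2fastq (2.17.1.14), Partek (7.0) and Cufflinks (2.2.1) are listed, with no roles, in the submitters' processing notes; the strand setting is not given in the sources used here. Depth per sample is unknown. Symbols matched GENCODE mouse release 21 for 52399 IDs, and promoters came from RefSeq.

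A gene was tested if its mean reached 1 FPKM (19288, 12054 protein-coding) with limma 3.58.1 in R 4.3.3 (lmFit, eBayes with trend) on log2(FPKM + 1), 4 group means in 1 fit, Benjamini-Hochberg over all genes in each of 7 comparisons. This scale understates changes of low genes. Rescaling divided each library by its median ratio to the geometric means of 16018 genes. The fit was tested on simulated data.

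The members and lists were chosen with earlier results of these data known. Named genes are the members, list genes past the threshold (at most 4 a list and comparison), the 2 most abundant exporters and importers, Keap1, Nqo1 and the 5 genes most like Mt1 or Mt2. No batch is given in the labels. Alternatives changed the pseudocount, filter, scaling, groups fitted, block and libraries. Copper handling genes are described in the closing section.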

Additional observations from a re-analysis of the deposited data

How the results depend on the processing

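The rise of Mt1 and Mt2 averaged over genotype kept its direction and its call in all 20 alternatives, and calls in single genotypes did not. For Mt2 no alternative left out both KO control 1 and KO control 3, listed at 0, so what these values add was not tested. In WT, where no control of Mt2 was listed at 0, Mt2 passed in 1 of 21 alternatives. The Mt1 difference in WT was 3.25 with no filter on low values, with only the 2 groups compared and with the replicate block (limma adjusted p = 0.073, 0.12 and 0.0525). In KO it passed after rescaling (3.33) and quantile normalization (3.25). Without 1 library at a time, the differences in WT ran between 2.64 and 4.01 for Mt1, 2.52 and 4.66 for Mt2, -0.29 and 0.070 for Mtf1, and -0.11 and 0.26 for Slc30a1. In KO they ran between 2.88 and 3.73 for Mt1, 3.78 and 5.09 for Mt2, and -0.30 and 0.042 for Mtf1. For KO against WT, Mt2 ran between -0.998 and 0.053 in controls, after IRI Mt1 between -0.21 and 1.16 and Mt2 between -0.69 and 1.46, and averaged over condition Mt2 between -0.50 and 0.58. The interaction ran between -0.76 and 0.61 for Mt1, -0.385 and 1.76 for Mt2, -0.20 and 0.19 for Mtf1, and -0.039 and 0.37 for Slc30a1.

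Reversed signs occurred in differences that passed no threshold, and the cause was not tested. With a common sum, Slc30a1 after IRI was -0.16 in KO and -0.065 averaged, KO against WT after IRI was -0.11 for Mt1, -0.12 for Mt2, -0.25 for Mtf1 and -0.050 for Slc30a1, the interaction was -0.44 for Mt1 and -0.19 for Slc30a1, and KO against WT averaged was -0.30 for Mt2 and -0.055 for Mtf1. Leaving out the libraries that stand apart (KO control 1, WT IRI 3 and WT control 3), Mtf1 after IRI was 0.040 in KO and 0.0050 averaged, KO against WT was 0.40 for Mt2 in controls and -0.15 averaged, and after IRI it was -0.21 for Mt1 and -0.69 for Mt2. In the same setting the interaction was -0.49 for Mt1, -1.09 for Mt2, 0.069 for Mtf1 and -0.099 for Slc30a1. Quantile normalization gave 0.017 for Mtf1 after IRI in KO, interactions of -0.14 for Mt1 and 0.063 for Mtf1, and -0.047 for Mt2 in KO against WT averaged. A pseudocount of 0.1 gave interactions of -0.044 for Mt1 and 0.0016 for Mtf1, and -0.44 for Mt2 averaged. Rescaling gave an interaction of 0.039 for Mtf1 and -0.055 for Mt2 averaged.

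The number of genes called was 167 after IRI in KO (8 to 848 over the alternatives), 729 in WT (109 to 1767) and 1744 averaged (1027 to 2644). For KO against WT it was 5 in controls (3 to 1961), 11 after IRI (0 to 552) and 2639 averaged (14 to 5898), and 1 in the interaction (0 to 28). The highest counts for KO against WT, and for IRI in KO, were those without KO control 2, so the shares called depended on that library. Replicate numbers are shared between groups, but same-numbered libraries deviated together only weakly (correlations of -0.04 to 0.20), 7 of 12 libraries correlated best with a library of their own number, and the labels state no pairing. The replicate block called 549 genes in WT and 1547 averaged. Without counts, depth cannot be weighed, and 3 libraries a group limit the precision.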

Other observations

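Metallothioneins also bind copper, and copper handling genes were counted for that reason. Of 11 listed genes 10 were tested, and after IRI averaged over genotype 0 passed as higher and 1 as lower, with a median log2 difference of 0.09, where 3.01% of all genes were called higher and 6.03% lower. After rescaling 2 passed as higher, Sco2, a copper chaperone of mitochondria (0.54 ± 0.14, limma adjusted p = 0.0283), and Slc31a1, the copper importer (0.80 ± 0.23, limma adjusted p = 0.0441), and 1 as lower. Rescaled, 6.35% of all genes were called higher and 7.33% lower. Commd1, which takes part in copper export, fell by 0.84 (-0.84 ± 0.15, limma adjusted p = 0.0079). It was at 12.5, 13.1 and 12.5 FPKM in KO IRI libraries, against 30.9, 18.6 and 24.6 FPKM in KO controls. In WT it was at 9.82, 10.3 and 6.32 FPKM after IRI, against 17.0, 13.9 and 17.0 FPKM in controls, so the groups did not overlap in either genotype, and the call held in all 20 alternatives. Averaged over condition, Sod1, the copper- and zinc-binding superoxide dismutase, was higher in KO than in WT (0.98 ± 0.15, limma adjusted p = 0.0209), as were Cox17, a copper chaperone of mitochondria (1.00 ± 0.24, limma adjusted p = 0.0334), Ccs, the copper chaperone of Sod1 (0.69 ± 0.17, limma adjusted p = 0.0341), and Commd1 (0.54 ± 0.15, limma adjusted p = 0.0454). In that comparison 13.7% of all genes were called. After rescaling 0 of the 10 passed between genotypes, against 0.55% of all genes.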
